A study of Mus musculus with 8 samples.

Results

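The Ifit genes (interferon-induced proteins with tetratricopeptide repeats) were described in mouse intestinal stem cells with a floxed Irf2 gene. The family was taken as 5 genes, Ifit1, Ifit1bl1, Ifit2, Ifit3 and Ifit3b, out of 21368 gene symbols on the array. They were read by 6 of 55681 probes, through the transcript that each probe names. The family was selected on measured values, namely the difference between the groups, because several of its genes were among the features with the greatest excess in the Irf2-deletion arrays. That difference is therefore given below as a description. Which members passed the threshold in it is stated once, beside the share of all features, and nothing is read from that count. All 5 genes and all 6 probes passed the detection filter, which asked for a signal well above background on at least 4 of 8 arrays. Ifit1 passed it on the Irf2-deletion arrays alone, so that its passing and its difference are not separate facts.

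Each of the 8 arrays held Cy3-labelled RNA from sorted cells with high Lgr5 reporter signal, 4 arrays per group. The control mice were Irf2fl/fl:Lgr5-EGFP-Ires-CreERT2, with floxed Irf2 and an EGFP and CreERT2 allele at Lgr5, the defining gene of crypt base stem cells. The other group, labelled Irf2_AhcKO, was Irf2fl/fl:AhCre:Lgr5-EGFP-Ires-CreERT2. It differed by AhCre, a recombinase under a xenobiotic-inducible promoter that works in intestinal epithelium and also in other tissues such as liver. Cells of both groups were taken 1 month after a course of β-naphthoflavone, the inducer of AhCre, on 5 days in a row. Both also carried CreERT2, which needs tamoxifen, and no tamoxifen is mentioned in the labels. No age was stated. The labels speak of 4 independent mice and also of 2 biological replicates, so the p values below measure the spread between these samples only.

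IFIT proteins are among the most strongly induced products of interferon signalling. Type I and type III interferons activate transcription factors that bind interferon-stimulated response elements in promoters, and IRF3 can act on the same elements without interferon. The proteins bind foreign RNA through their repeats, and IFIT1 holds back translation of RNA whose cap lacks ribose methylation. IRF2 binds related elements and is known mainly as a repressor that competes with activating factors of the IRF family. Intestinal epithelium responds above all to type III interferon.

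The promoters of the family are shown because the response element is the feature that the regulators named above read. Sequences are RefSeq's, assembly GRCm38.p6, on mouse chromosome 19 and in the direction of the gene, and each holds the 250 bases before the annotated start. Capitals mark matches to GAAANNGAAA or to its reverse complement TTTCNNTTTC, the core of the element, searched on both strands. The build of the array annotation differs, so these positions belong to RefSeq and not to the probes. The Ifit1 promoter (chr19:34640639-34640888, plus strand) held 2 matches, which began 104 and 85 bases before the start.
Ifit1: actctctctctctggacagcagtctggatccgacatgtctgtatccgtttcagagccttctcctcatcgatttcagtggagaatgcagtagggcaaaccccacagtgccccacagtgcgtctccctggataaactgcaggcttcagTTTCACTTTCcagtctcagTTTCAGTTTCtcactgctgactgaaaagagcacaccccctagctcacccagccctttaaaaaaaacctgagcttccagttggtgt
The Ifit3 promoter (chr19:34583279-34583528, plus strand) held 2 matches as well, 156 and 122 bases before the start.
Ifit3: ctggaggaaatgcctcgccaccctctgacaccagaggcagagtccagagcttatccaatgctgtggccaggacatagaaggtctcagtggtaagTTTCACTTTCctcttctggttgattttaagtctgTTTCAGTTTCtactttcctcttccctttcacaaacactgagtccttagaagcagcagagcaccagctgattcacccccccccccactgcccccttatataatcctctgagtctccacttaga
The Ifit3b promoter (chr19:34607707-34607956, plus strand) carried 2 matches at 188 and 154 bases, with the same letters as those of Ifit3 and Ifit1.
Ifit3b: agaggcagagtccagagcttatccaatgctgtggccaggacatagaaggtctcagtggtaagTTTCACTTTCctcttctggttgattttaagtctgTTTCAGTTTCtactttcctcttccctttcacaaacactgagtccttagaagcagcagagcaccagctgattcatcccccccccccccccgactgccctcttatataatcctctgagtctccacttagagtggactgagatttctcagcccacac
The first of 2 annotated Ifit1bl1 promoters (chr19:34601969-34602218, minus strand) held 1 match, 104 bases before the start.
Ifit1bl1: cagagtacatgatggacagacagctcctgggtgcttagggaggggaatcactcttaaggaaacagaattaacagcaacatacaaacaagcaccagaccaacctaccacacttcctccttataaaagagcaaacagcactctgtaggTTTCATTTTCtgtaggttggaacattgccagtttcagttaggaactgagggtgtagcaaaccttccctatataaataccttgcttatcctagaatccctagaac

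Ifit3 and Ifit3b are near-copies in this stretch too. Over their RefSeq windows of 300 bases (250 before and 50 after the start), 258 of 274 aligned positions were identical (94.2%), and 14 of the positions were gaps. The second Ifit1bl1 window held 1 match, and neither of the 2 Ifit2 windows held any, which says only that these letters are missing from these windows. Of all 32851 RefSeq windows of this length, 1131 (3.44%) held a match. A match is a string of letters and no evidence of binding. Ifit1bl2, a further gene of the family that is no member here, is transcribed away from Ifit1, and its first window shares 245 genomic bases and the same 2 matches with the window of Ifit1.

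The Irf2 probe did not show the deletion. Its signal, as log2 relative to the 75th percentile of the array, ran from 0.37 to 0.99 over the 4 controls and from 0.70 to 1.12 over the 4 Irf2_AhcKO arrays. The groups overlapped with the higher mean in Irf2_AhcKO. No source used here says whether this probe lies inside the floxed stretch, so it may check nothing. The scanner output of control replicates 3 and 4 carries AhCre in its name as well, and whether those mice carried it is not settled. Replicates 1 and 2 of both groups were hybridised on slide 1 and replicates 3 and 4 on slide 2, so that slide 1 alone leaves the doubtful controls out. Every direction below is between arrays as labelled.

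The sorted cells had the markers of their label. The level of Lgr5 was 3.17 ± 0.24 (SD, n = 4) in the control group against 2.88 ± 0.41 (SD, n = 4), and 7 of 8 stem cell markers were measured, with no probe matched to Olfm4. Markers of other cells were also present. The summed linear signal of enterocyte markers, in multiples of the array's 75th percentile, ranged from 90.5 to 1475 in controls and from 64.9 to 81.6 in Irf2_AhcKO, without overlap. The 1475 was that of control replicate 4 and came from 1 gene, Sis, a brush border sugar hydrolase, at a log2 signal of 10.42 on that array and between -1.74 and -0.79 on the other controls. Without Sis the 7 other enterocyte markers summed to between 89.9 and 110.1 in controls and between 64.8 and 81.4 in Irf2_AhcKO. That sum was mostly Fabp2, at a mean log2 signal of 6.57 in controls and 6.07 in Irf2_AhcKO, with Fabp1 next at 1.59 and 1.00. Gene by gene, all 8 enterocyte markers differed below 0, and 4 of them separated the groups. None of the 8 had a limma adjusted p below 0.05 over all features. The share of all features that separated the groups in this direction is not given here. The sum of T and intraepithelial lymphocyte markers ranged from 4.90 to 7.32 in controls and from 7.49 to 7.89 in Irf2_AhcKO, again without overlap. None of the 5 measured genes of that list separated the groups by itself, Gzmb differed by -0.25, and Cd3g and Cd8a were not well above background on enough arrays. Tuft cell markers summed to between 3.23 and 4.81 in controls and between 3.97 and 10.9 in Irf2_AhcKO, so these sums overlapped. The median log2 difference over 5 tuft genes was 0.68, with 4 above 0 and 1 below, at -0.10. Of these genes Trpm5 alone separated the groups, and none had a limma adjusted p below 0.05 over all features. Myeloid markers summed to between 46.0 and 49.2 in controls and between 47.1 and 52.7 in Irf2_AhcKO. Goblet markers summed to between 174.6 and 211.4 in controls and between 158.1 and 231.9 in Irf2_AhcKO. For Paneth markers the sums were 60.7 to 87.7 and 50.8 to 109.3. Sums of enteroendocrine, B cell and mesenchymal markers overlapped between the groups too. In the enteroendocrine and the B cell list 1 gene each separated the groups, higher in Irf2_AhcKO. The part of these cells in the Ifit differences was not tested, and in RNA from many cells fewer cells of a type and less RNA per cell cannot be told apart.

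Of the 5 Ifit genes, 4 were brighter on every Irf2_AhcKO array than on any control array. Ifit1bl1 and Ifit2 were measured on all 8 arrays and stood 5.87-fold and 5.84-fold higher. Ifit1 was well above background on all 4 Irf2_AhcKO arrays and on 0 of 4 control arrays. Ifit3 was higher mostly against the controls of slide 1. Ifit3b had 2 probes that gave different answers. Over all 25404 features tested, 1.74% had groups that did not overlap and were higher in Irf2_AhcKO. Ifit1 had rank 1 of all features by its log2 difference, with Ifit3 at rank 3, Ifit1bl1 at 6 and Ifit2 at 7, which restates the choice of the family.

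**Figure D1:**
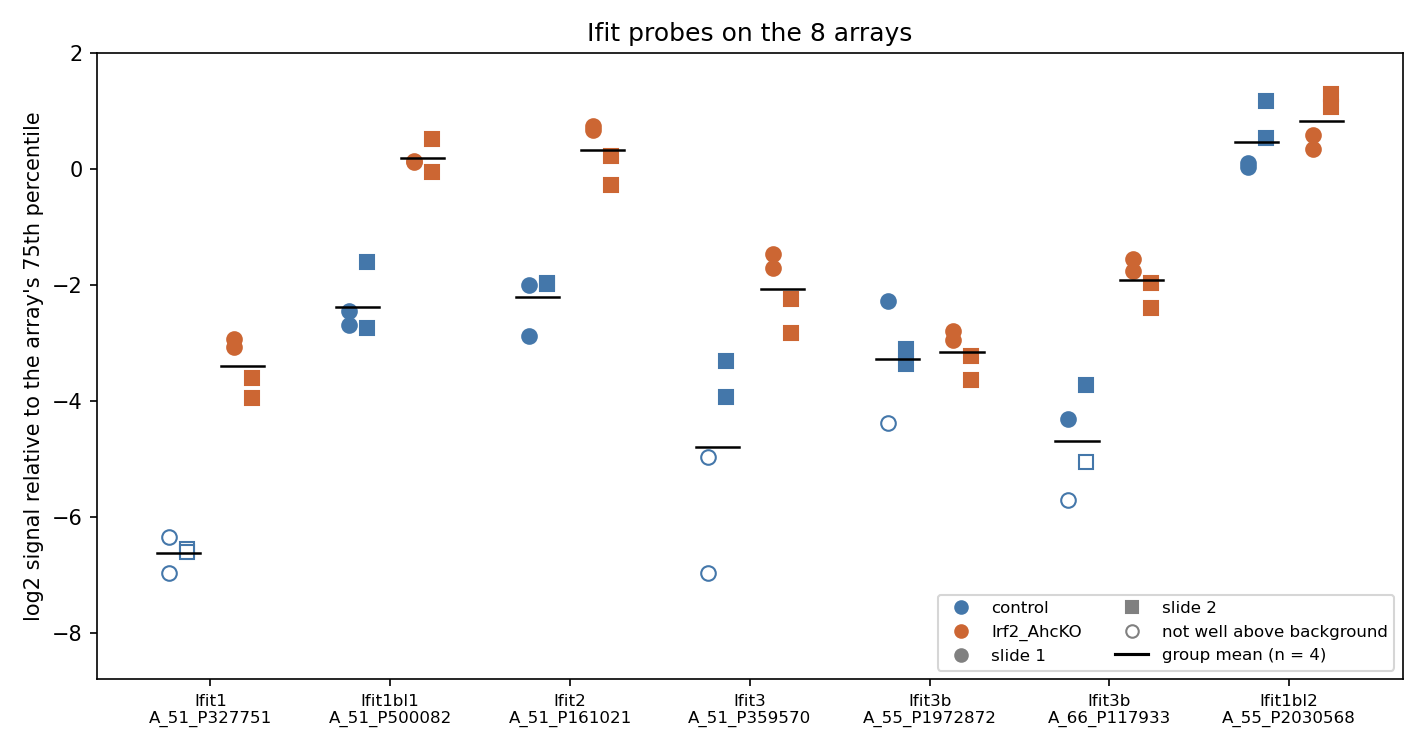
Signal of each Ifit probe on each of the 8 arrays, as log2 relative to the array's 75th percentile. Blue is control and orange Irf2_AhcKO, circles are slide 1 and squares slide 2, open symbols are not well above background, and bars are means of 4 arrays. The groups overlap for the first Ifit3b probe and for Ifit1bl2 and for no other probe shown.

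Ifit1 is the family member that binds RNA with an incompletely methylated cap. Its log2 signal was -6.96, -6.35, -6.56 and -6.61 in control replicates 1 to 4. It was -3.08, -2.93, -3.61 and -3.95 in Irf2_AhcKO replicates 1 to 4. Both Irf2_AhcKO arrays of slide 1 were brighter than both of slide 2, and the control arrays were all dim, with none well above background. The processed intensity was between 1.79 and 2.79 in controls, near the lowest intensity of any spot on those arrays (1.75 to 2.33), and between 14.7 and 29.7 in Irf2_AhcKO. The log2 difference was 3.23 (SE 0.22), but its control side is background. A floor was set on each control array at the dimmest probe that was still well above background, or at the Ifit1 signal where that was higher. Against this floor Ifit1 was 2.41-fold higher. On slide 1 it was 3.13-fold higher and on slide 2 it was 1.86-fold higher. A probe that is not well above background can lie above the floor, as an Ifit3b probe did on control replicate 2 (-4.38 against -4.53). These folds are therefore no strict lower bounds. With normexp, a background correction described below, the Ifit1 difference was 1.37-fold.

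Ifit1bl1 is an Ifit1-like paralogue. Its log2 signal was -2.70, -2.44, -2.75 and -1.60 in the controls. It was 0.14, 0.12, -0.05 and 0.51 in Irf2_AhcKO. Replicate 4 was the brightest array of each group, and the dimmest Irf2_AhcKO array lay 1.56 above the brightest control. The means were -2.37 ± 0.53 (SD, n = 4) and 0.18 ± 0.24 (SD, n = 4), and the log2 difference was 2.55 (SE 0.26). It was 2.70 on slide 1 and 2.41 on slide 2, the closest agreement between slides among the higher members.

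Ifit2 differs from the others in that it is also tied to the control of cell death and to the restriction of viruses in neurons. Its log2 signal was -2.89, -2.00, -1.98 and -1.98 in the controls. It was 0.67, 0.73, -0.28 and 0.22 in Irf2_AhcKO. Control replicate 1 lay well below the other 3 controls, which were nearly equal, and the Irf2_AhcKO arrays of slide 1 were brighter than those of slide 2. The means were -2.21 ± 0.45 (SD, n = 4) and 0.34 ± 0.47 (SD, n = 4). The log2 difference was 2.55 (SE 0.30), with 3.14 on slide 1 and 1.95 on slide 2. Without control replicate 1 it was 2.25.

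Ifit3 is the partner that, in humans, stabilises IFIT1 on RNA. Its log2 signal was -6.98, -4.97, -3.93 and -3.31 in the controls, and replicates 1 and 2 were not well above background. It was -1.46, -1.71, -2.84 and -2.24 in Irf2_AhcKO, well above background on all 4 arrays. The controls spanned the widest range of any member, with both controls of slide 1 dimmer than both of slide 2, while the Irf2_AhcKO arrays ran the other way. The groups did not overlap, yet the brightest control lay only 0.47 below the dimmest Irf2_AhcKO array. The log2 difference was 2.73 (SE 0.75). On slide 2, where both groups were measured, the difference was 1.08, a 2.11-fold excess. On slide 1 it was 4.39 against controls at background. With the floor in place of those controls the excess was 8.36-fold, and with normexp it was 2.18-fold. The 2 controls on slide 2 are those whose names mention AhCre.

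Ifit3b, a near-copy of Ifit3 whose transcript can share probes with it, was read by 2 probes. Its representative, probe A_55_P1972872, was chosen for its higher mean. That probe gave -2.29, -4.38, -3.36 and -3.10 in the controls and -2.79, -2.96, -3.23 and -3.64 in Irf2_AhcKO. Control replicate 1 was the brightest array and control replicate 2 the dimmest, so the groups overlapped, with a log2 difference of 0.13 (SE 0.43). Probe A_66_P117933 gave -4.31, -5.71, -5.05 and -3.72 in the controls, of which replicates 1 and 4 were well above background. In Irf2_AhcKO it gave -1.56, -1.77, -2.40 and -1.96, all well above background. Its groups did not overlap and the log2 difference was 2.78 (SE 0.43), with 3.35 on slide 1 and 2.20 on slide 2. Which of the near-copies each probe reads was not tested, since probe sequences were not used here, and the direction for Ifit3b therefore rests on the probe chosen.

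Control replicate 1 illustrates how differently the probes ran. It was the dimmest control for Ifit1, Ifit2 and Ifit3 and the brightest control for the first Ifit3b probe. Control replicate 4 was the brightest control for Ifit1bl1, Ifit3 and the second Ifit3b probe. After slide means were removed, the member profiles over the 8 arrays correlated with their common mean at r = 0.98 for Ifit1, 0.97 for Ifit1bl1, 0.99 for Ifit2 and 0.94 for Ifit3. For Ifit3b r was 0.12. The common mean holds each member itself and the points share the group labels that chose the family, so these are descriptions. With the mean of each group on each slide removed, r between pairs of members ran from -0.94 (Ifit2 with Ifit3b) to 0.92 (Ifit2 with Ifit3). It was -0.10 for Ifit1 with Ifit1bl1. The 2 arrays of a group on a slide then deviate equally in opposite directions, so the 8 points are not independent. Ifit2, Ifit3 and Ifit3b deviated most on control replicates 1 and 2. Neither array was well above background for Ifit3, nor was replicate 2 for Ifit3b. Nothing is therefore read from these last r values.

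Some family names lie outside the members. Ifit1bl2 was measured on all 8 arrays, at 0.03, 0.10, 0.54 and 1.17 in the controls and 0.58, 0.34, 1.06 and 1.30 in Irf2_AhcKO. Its groups overlapped, with 0.36 (SE 0.15) between them on the log2 scale (limma adjusted p = 0.420). Both groups were brighter on slide 2 than on slide 1, by 0.75 (SE 0.15, limma adjusted p = 0.00819). For Ifit1, whose promoter window overlaps that of Ifit1bl2, the log2 difference in the processed signal was 3.23, without overlap of the groups. With normexp it was 0.46 for Ifit1 and 0.30 for Ifit1bl2. Normexp draws dim spots together and Ifit1 was the dimmer gene, so its normexp value and that of Ifit1bl2 are not on a like scale. Whether the differences of these genes differ was not tested. The Ifitm genes, whose names look alike, encode unrelated membrane proteins that block viral entry, and their 5 measured members had log2 differences from -0.10 for Ifitm1 to 0.18 for Ifitm7.

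The genes beside the cluster are ordered along the chromosome in the plot of the Ifit cluster. On its near side, Acta2 (smooth muscle actin) differed by 0.06 (SE 0.09) and Lipa (lysosomal acid lipase) by 0.55 (SE 0.18, limma adjusted p = 0.355). On the far side, Slc16a12 (a creatine transporter) differed by 0.02 (SE 0.14), Pank1 (coenzyme A synthesis) by -0.16 (SE 0.14) and Kif20b (a mitotic kinesin) by -0.05 (SE 0.15). None of these 5 passed the threshold. Fas, Ch25h and Htr7 were not well above background on enough arrays. Within the cluster, Ifit1bl2 and the representative Ifit3b probe lay between members with differences above 2.5.

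**Figure D2:**
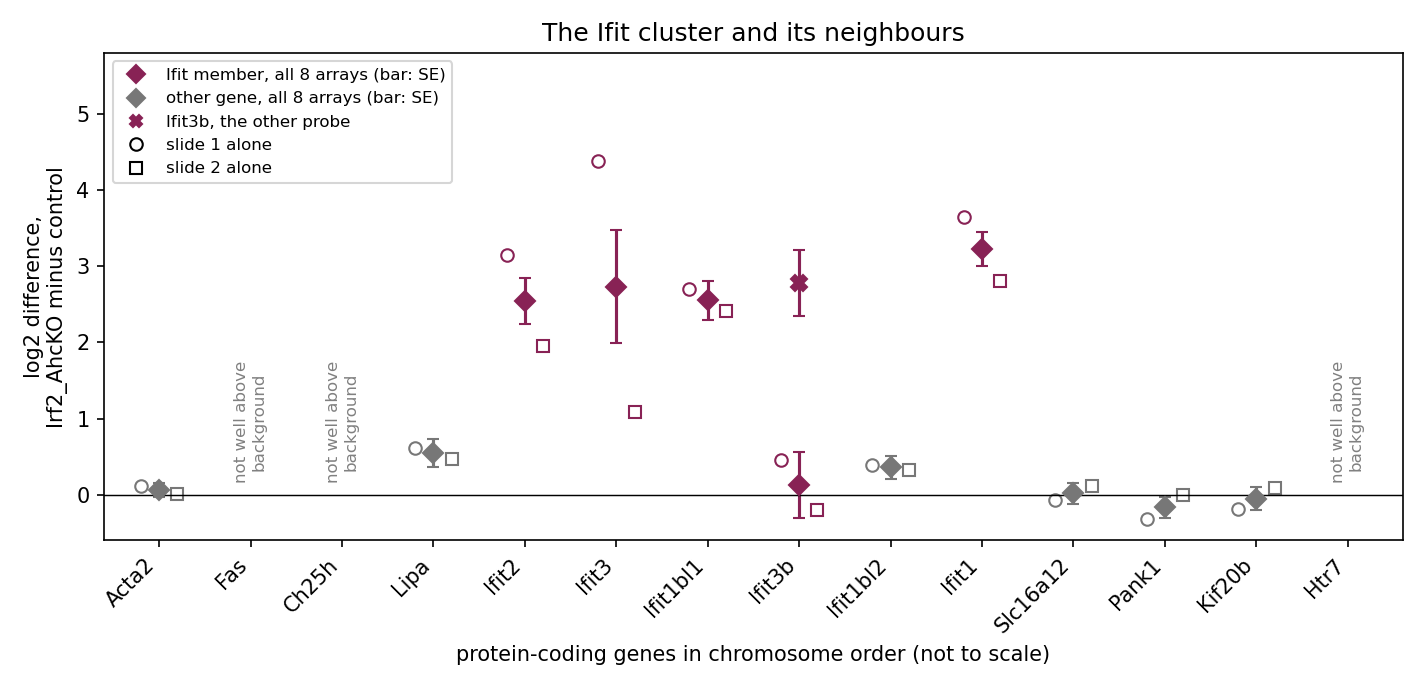
Log2 difference, Irf2_AhcKO minus control, of the genes in and around the Ifit cluster in chromosome order and not to scale. Diamonds are estimates from all 8 arrays with their SE, open circles slide 1 alone and open squares slide 2 alone. The neighbours lie between -0.16 and 0.55, and Ifit3 has the widest gap between its slides, 4.39 against 1.08.

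How large the differences look depends on how background is treated. In the processed signal of the scanner software a spot near background is spread over a wide log range. With a normexp correction and an offset of 50, which draws dim spots together, the log2 difference of Ifit1 was 0.46 (1.37-fold) and that of Ifit3 was 0.72 (1.64-fold). The brighter members shrank less, to 1.68 (3.21-fold) for Ifit1bl1 and 1.75 (3.35-fold) for Ifit2. For the Ifit3b probes normexp gave -0.06 for A_55_P1972872 and 0.75 for A_66_P117933. Every probe that separated the groups in the processed signal also separated them with normexp, and none of these turned its direction. The first Ifit3b probe, whose groups overlapped, went from 0.13 to -0.06.

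**Figure D3:**
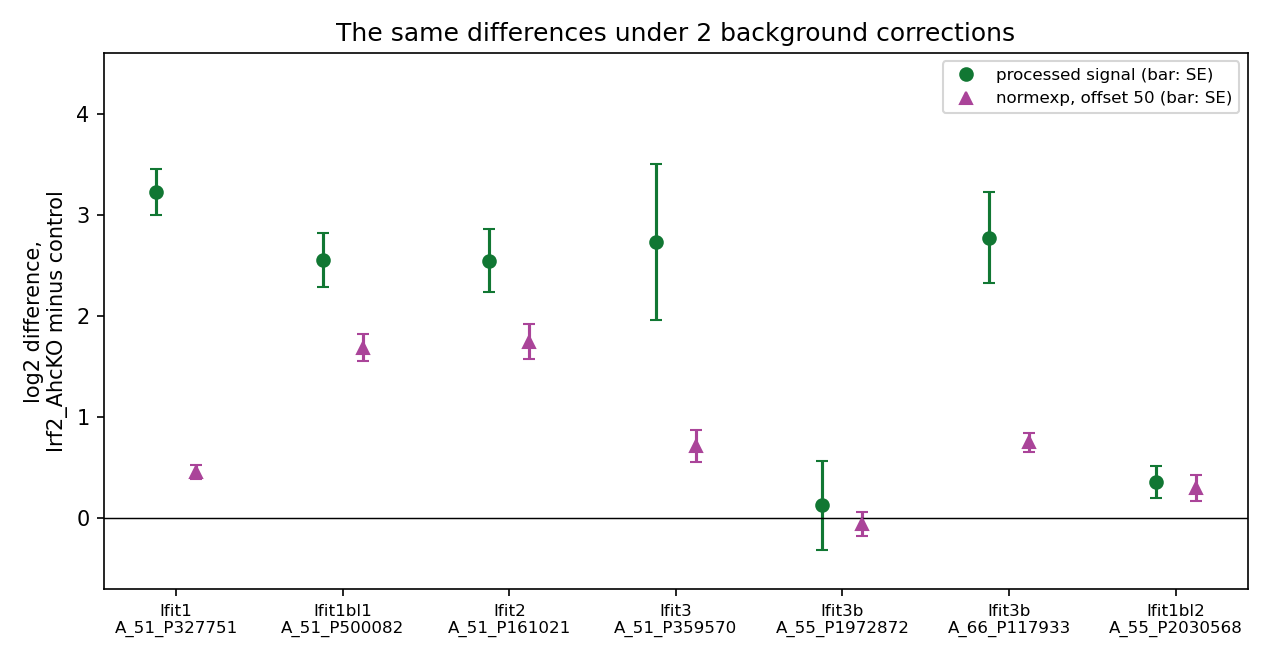
Log2 difference, Irf2_AhcKO minus control, of each Ifit probe with its SE, from the processed signal (circles) and after normexp with an offset of 50 (triangles), each fitted over all probes. Ifit1 falls from 3.23 to 0.46 while Ifit2 falls from 2.55 to 1.75.

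By the fit over all features, with Benjamini-Hochberg adjusted p below 0.05 as the call, Ifit1 and Ifit1bl1 were called, which is 2 of 5 members higher and 0 lower. The background was 25 of 25404 features (0.0984%), with 14 higher (0.0551%) and 11 lower (0.0433%). The rule used this contrast, so nothing is read from the members' count. With replicate numbers as a block, no feature was called (limma), neither Ifit1 nor Ifit1bl1 included, against 3293 features at an unadjusted p below 0.05. Leaving out control replicate 2, or Irf2_AhcKO replicate 1, 2 or 3, also left no member called. Leaving out control replicate 4 kept the count at 2, and each of the remaining arrays left 1. Without the slide term 3 members were called.

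The slide contrast did not choose the family. None of the 5 was called between slide 2 and slide 1 (limma), and none had an unadjusted p below 0.05, where 35.5% of all features were called. For the members measured on all 8 arrays, the log2 difference, slide 2 minus slide 1, with its 95% interval was 0.25 (-0.36 to 0.85) for Ifit1bl1 and -0.13 (-0.84 to 0.58) for Ifit2. It was -0.35 (-0.86 to 0.16) for Ifit1, 0.70 (-1.06 to 2.46) for Ifit3 and -0.23 (-1.24 to 0.78) for Ifit3b. These last 3 mix arrays at background with measured ones, and Ifit1 had no measured control, so they say little about the slide. Leaving out control replicate 1 brought Ifit1 past the threshold and leaving out control replicate 2 Ifit3b, with the same limit.

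Whether the group difference itself differed between slides was asked with an interaction. The value is the difference on slide 2 minus that on slide 1. It was -1.19 (95% interval -2.25 to -0.14) for Ifit2 and -0.29 (-1.60 to 1.02) for Ifit1bl1. With normexp it was -0.75 (-1.32 to -0.18) for Ifit2 and -0.17 (-0.81 to 0.46) for Ifit1bl1. For Ifit3 and Ifit1 the processed signal gave -3.31 and -0.85, but both controls of slide 1 were at background for Ifit3 and all 4 controls for Ifit1, so the sizes are set by background. With normexp the interaction was -0.82 (95% interval -1.20 to -0.44) for Ifit3, from 1.13 on slide 1 and 0.31 on slide 2. For Ifit1 it was -0.24 (-0.54 to 0.07), from 0.58 and 0.34. The representative Ifit3b probe gave -0.66 (-2.80 to 1.47). No member was called (limma adjusted p = 0.999 for each), and 0 of 25404 features were. An unadjusted p below 0.05 (limma) was reached by Ifit1, Ifit2 and Ifit3, 3 members, and by 4.29% of all features. Background values enter this count for Ifit1 and Ifit3 but not for Ifit2. The Ifit2 interaction includes control replicate 1, which lay at -2.89 against -2.00 for control replicate 2 on the same slide. Its size without that array is not given here. With normexp an unadjusted p below 0.05 (limma) was reached by 2 members, Ifit2 and Ifit3, and by 4.03% of all features. No feature passed after adjustment in the processed signal, and nothing more is read from these counts. The controls on slide 2 are those whose names mention AhCre, and their part in these values was not tested.

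Among the other genes of the interferon pathway, 1 of 70 that were measured was called. The lists were chosen with earlier results of these data known. Over all features the median log2 difference was -0.0024. Of 40 antiviral interferon-stimulated genes, 28 were measured, 0 were called higher and 1 lower, with 11 differences above and 17 below 0 and a median of -0.13. The called gene was Nmi, an interferon-induced regulator of cytokine signalling, which went from 1.39 ± 0.21 (SD, n = 4) to 0.30 ± 0.16 (SD, n = 4). This log2 difference of -1.09 had an SE of 0.09 (limma adjusted p = 0.0135). With the replicate block it was not called. Ifi27, an interferon-induced mitochondrial protein, had a difference of -2.29 (SE 0.32, limma adjusted p = 0.0797). Dtx3l, a ubiquitin ligase that works with PARP9, had one of 0.82 (SE 0.13, limma adjusted p = 0.109). The extremes of the list were Rtp4 at -3.15 and the chemokine Cxcl10 at 1.81, and neither passed. Rtp4 was well above background on 2 of 4 Irf2_AhcKO arrays and Cxcl10 on 1 of 4 controls, so that the sizes of both rest in part on background.

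Upstream of the family, 21 of 23 genes of the interferon receptors and the factors downstream of them were measured and 0 were called. Of these 14 were above 0 and 7 below, with a median of 0.10. Irf8, an IRF factor of blood cells, differed by 0.60 (SE 0.13, limma adjusted p = 0.202). Irf7, an amplifier of interferon production, differed by -0.59 (SE 0.17, limma adjusted p = 0.318).

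Of 14 sensors of RNA and DNA, 13 were measured and 0 called, with 8 above and 5 below 0 and a median of 0.16. Dhx58, the LGP2 helicase, was at -3.51 ± 0.56 (SD, n = 4) in controls and was well above background on 0 of 4 Irf2_AhcKO arrays. Its log2 difference in the processed signal was -1.82 (SE 0.35, limma adjusted p = 0.159), with background on the Irf2_AhcKO side. With those arrays set at the floor it was 1.90-fold lower, which is no strict bound. Ifih1, the RNA sensor MDA5, differed by 0.66 (SE 0.14, limma adjusted p = 0.194), and Tbk1, the kinase that activates IRF3, by 0.46 (SE 0.10, limma adjusted p = 0.202).

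All 10 reported partners of IFIT proteins and cap enzymes were measured and 0 were called. Their median was -0.01, with 5 above and 5 below 0. Apart from Tbk1, which is also in this list, the smallest unadjusted p values belonged to Tomm70a, a mitochondrial import receptor, at -0.19 (SE 0.09) and Cmtr1, the methyltransferase that makes the cap form that IFIT1 binds poorly, at 0.22 (SE 0.12). Counts of 0 come beside 28 of 70 listed pathway genes at an unadjusted p below 0.05, where the share of all features was 11.7%. No test of a list was run, and the difference of these shares was not tested.

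**Figure D4:**
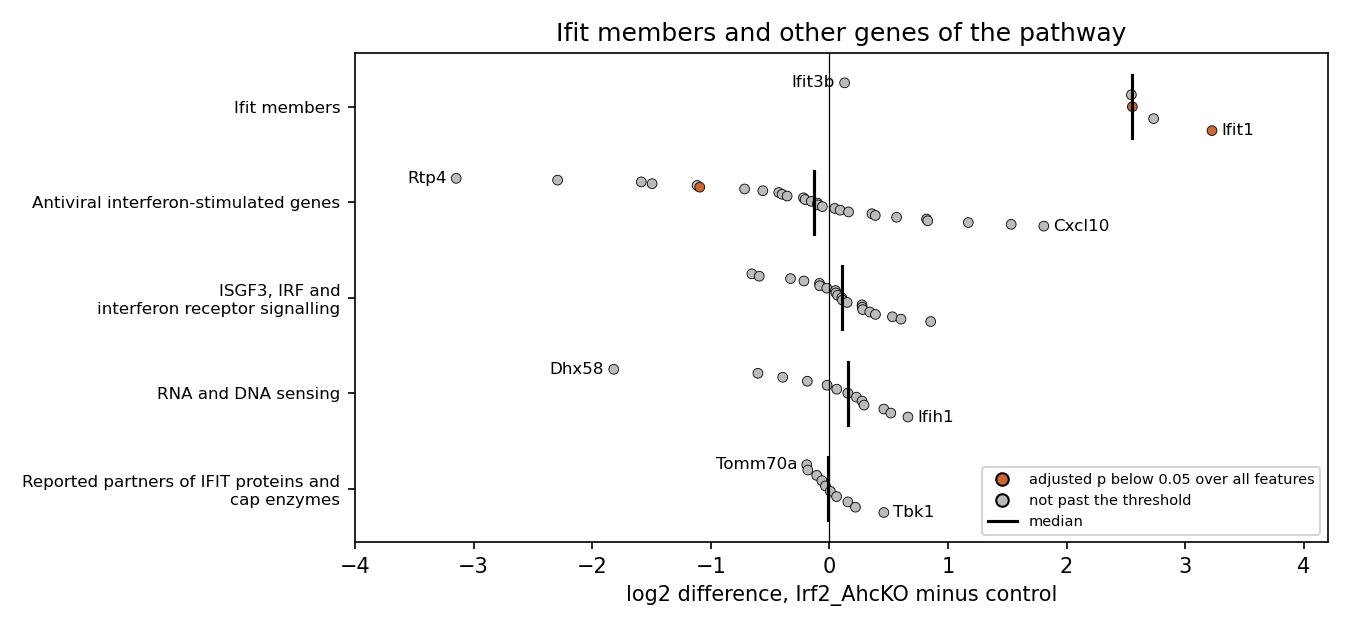
Log2 difference, Irf2_AhcKO minus control, of each measured gene (1 point) for the Ifit members and 4 lists of pathway genes, with the median as a bar and genes past the threshold in orange. The medians of the 4 lists lie between -0.13 and 0.16, and the antiviral list lies on both sides of 0. The points of Ifit1, Ifit3, Rtp4, Cxcl10 and Dhx58 rest in part on arrays not well above background, so their sizes are not exact.

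Outside the family, the 6 named features whose profile was most like its mean, by Pearson's r over the 8 arrays after slide means were removed, were Olfr424 (0.990), Aspg (0.989), Slc37a4 (0.988), Trim31 (0.987), Gpat2 (0.984) and Scd4 (0.984). Olfr424 is an olfactory receptor, Aspg an asparaginase, Slc37a4 the glucose-6-phosphate transporter and Trim31 a ubiquitin ligase. Their log2 differences were 1.04 for Olfr424 (SE 0.16), 1.35 for Aspg (SE 0.16), 0.32 for Slc37a4 (SE 0.07) and 1.00 for Trim31 (SE 0.17). For Gpat2 and Scd4, both enzymes of lipid synthesis, they were 0.51 (SE 0.11) and 0.30 (SE 0.08). Likeness here is of shape and not of size, all points share the 2 groups, and none of these 6 was called. None belonged to the pathway lists.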

How the data were processed

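RNA of 4 control and 4 Irf2_AhcKO samples was amplified and hybridised to 1-colour Agilent arrays, per the labels' protocols. The deposited scanner files hold a background-subtracted intensity for each of 62976 spots, made by the authors with Agilent Feature Extraction 11.5.1.1, as the submitters' processing notes and, per the file headers, the scanner output say. A deposited table of the whole series, equal to this intensity times a constant per array, served as an alternative. Between 61.4% and 69.8% of spots were well above background, and none was saturated. Precision is limited by the 8 arrays.

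From these, log2 of the processed intensity minus the array's 75th percentile was computed, averaged over a probe's spots without outliers. Probes were named through their accession and RefSeq's table for GRCm38.p6, which gave 28331 of 55681 probes a symbol. Probes well above background on at least 4 of 8 arrays were kept, and each gene took its kept probe of highest mean, which left 25404 features. The comparison used limma 3.58.1 (R 4.3.3), with slide as a term, two-sided, called at a Benjamini-Hochberg adjusted p below 0.05 over all features. The fit was tested on simulated data with known changes.

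Across genes, the deviations of same-numbered arrays from the group means correlated at r = 0.46 to 0.53, which by the rule used makes the numbers pairs. With slide means removed as well, r was 0.05 and 0.21, so most of it came through the slide. The labels do not say what a number marks.

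The members and gene lists were chosen with earlier results of these data known. Genes named are Irf2, every Ifit gene and probe, the cluster's neighbours, the 6 profiles most like the family, up to 3 genes per pathway list by unadjusted p and up to 2 bright genes per marker list. The value of 1 gene that this rule takes is not reported here. Lgr5, Sis, Gzmb, Rtp4, Cxcl10, Cd3g, Cd8a, Olfm4 and the Ifitm genes were named after their values were seen. Alternatives were normexp (offset 50, on the median spot signal, since the mean signal was not used here), quantile normalization, another percentile, the series table, other filters, the mean of kept probes, no slide term, each slide alone, the replicate block and each array left out. The probe-by-probe views of Ifit3b and of normexp and the enterocyte sum without Sis were chosen after seeing the data.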

Additional observations from a re-analysis of the deposited data

Results flagged for a closer look

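In the 4 controls Ifit2 had 1 array far from the others. Control replicate 1 lay at -2.89 while the other 3 controls lay at -2.00, -1.98 and -1.98, and its gap to the nearest divided by the whole range was 0.972, above Dixon's 95% critical value for 4 samples. Chance alone does this in about 1 of 20 groups. Without that array the log2 difference of Ifit2 was 2.25 instead of 2.55. No other Ifit probe met this rule in either group.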

How the results depend on the processing

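Ifit1, Ifit1bl1, Ifit2 and Ifit3 kept a positive difference in every alternative that gave a value. Values that moved by more than 1 SD between replicates were as follows. With normexp the differences were 0.46 for Ifit1, 1.68 for Ifit1bl1, 1.75 for Ifit2 and 0.72 for Ifit3. On slide 1 alone they were 3.65 for Ifit1, 3.14 for Ifit2 and 4.39 for Ifit3, and on slide 2 alone 2.80, 1.95 and 1.08. With 1 array left out, none of these genes moved by that much. Ifit1 then ranged from 3.02 to 3.38, Ifit1bl1 from 2.36 to 2.81, Ifit2 from 2.25 to 2.77 and Ifit3 from 2.00 to 3.19. Ifit3b had no settled direction. It was 1.45 as the mean of both probes, 2.78 with the other probe and -0.20 on slide 2 alone, and it ranged from -0.36 (without control replicate 2) to 0.48 with 1 array left out.

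Calls over all features, 25 in the fit reported, were 133 with normexp (with 4 of 5 members, all but Ifit3, where the probe standing for Ifit3b also changed to A_66_P117933), 46 among probes above background on all 8 arrays (where of the members Ifit1bl1 and Ifit2 alone were kept) and 7 with no filter. They ranged from 0 to 25 with 1 array left out and were 0 on either slide alone, against 2539 and 1337 at an unadjusted p below 0.05 (limma). With the replicate block they were 0, against 3293. Pathway genes called, 1 in the fit reported, were 5 with normexp, 2 among probes above background on all 8 arrays, 0 without the slide term, on either slide alone and with the replicate block, and 0 to 1 with 1 array left out. At an unadjusted p below 0.05 there were 22 of 70 without the slide term, 20 and 16 on the slides and 28 with the block. Members called between slides were 0 to 1 with 1 array left out.

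Cause was not tested for any of these. Fewer arrays enter each slide alone, and dim probes (Ifit1, Ifit3, the second Ifit3b probe) limit what can be said in the controls, where they were at or near background.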
